A study of Mus musculus with 8 samples.

Results

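The Egr family consists of Egr1, Egr2, Egr3 and Egr4, transcription factors that each bind GC-rich DNA through a set of zinc fingers. Its 4 genes, of 12393 genes that the platform annotation names alone on a probe set, were covered by 5 of the 22690 probe sets on the array. Egr1 (1417065_at), Egr3 (1421486_at) and Egr4 (1449977_at) had 1 probe set each. Egr2 had 2, called here the first (1427682_a_at) and the second (1427683_at). Expression was measured on 8 mouse arrays, 2 in each of 4 groups. Wild-type and Med23-/- knockout embryonic fibroblasts, both from E11 and passaged through crisis, spent 16 h in 0.5% serum. They were then harvested as starved cells, or after 30 min in 20% serum. MED23 is a subunit of Mediator, the complex through which DNA-bound activators reach RNA polymerase. Loss of MED23 cannot be told apart here from any other difference between the wild-type and the knockout cultures. The labels speak of duplicates without saying whether these were separate cultures, so p-values measure only the spread between these samples. In such bulk RNA, fewer expressing cells and less RNA per cell cannot be told apart either.

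Egr genes are immediate early genes. Serum growth factors activate the Ras and MAP kinase cascade, which phosphorylates Elk1 and related ternary complex factors that sit with serum response factor (SRF) at serum response elements, and transcription starts within minutes without new protein. The Egr proteins then act on later genes, and Egr1, Egr2 and Egr3 are held in check by the corepressors Nab1 and Nab2. Egr1 (also Zif268 or Krox24) is a widely used readout of growth factor signalling and was singled out in the study's design. Egr2 (Krox20) is needed for hindbrain segmentation and for myelination by Schwann cells, Egr3 for muscle spindles, and Egr4 for male fertility in mice.

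Promoter windows of RefSeq (GRCm38.p6, 250 bases before to 50 after an annotated start) were matched for Egr2 (5 windows) and Egr4 (1 window). Of these, 3 are shown because they hold elements through which serum signals are known to act. Capitals mark the CArG box, the core of the serum response element, the cyclic AMP response element motif TGACGT and the Ets core CCGGAA. The CArG box was searched as CCWWWWWWGG, where W is A or T. Each motif was searched on both strands in exactly this form, and looser forms were not searched. The Egr2 windows lie on the plus strand at chr10:67537316-67537615 and chr10:67537619-67537918, and the Egr4 window on the minus strand at chr6:85513540-85513839.
Egr2, upstream window: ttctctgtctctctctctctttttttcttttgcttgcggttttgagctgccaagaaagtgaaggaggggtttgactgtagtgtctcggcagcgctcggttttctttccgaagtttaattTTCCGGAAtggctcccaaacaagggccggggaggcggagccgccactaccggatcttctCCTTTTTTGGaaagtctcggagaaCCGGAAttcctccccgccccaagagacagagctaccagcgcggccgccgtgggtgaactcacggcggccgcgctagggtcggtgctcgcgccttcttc
Egr2, downstream window: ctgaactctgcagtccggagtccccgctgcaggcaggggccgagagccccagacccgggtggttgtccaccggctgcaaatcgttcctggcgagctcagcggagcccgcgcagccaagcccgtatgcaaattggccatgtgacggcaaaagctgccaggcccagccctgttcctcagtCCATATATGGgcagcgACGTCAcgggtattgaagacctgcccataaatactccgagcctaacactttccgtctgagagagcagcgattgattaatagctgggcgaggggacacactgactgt
Egr4 window: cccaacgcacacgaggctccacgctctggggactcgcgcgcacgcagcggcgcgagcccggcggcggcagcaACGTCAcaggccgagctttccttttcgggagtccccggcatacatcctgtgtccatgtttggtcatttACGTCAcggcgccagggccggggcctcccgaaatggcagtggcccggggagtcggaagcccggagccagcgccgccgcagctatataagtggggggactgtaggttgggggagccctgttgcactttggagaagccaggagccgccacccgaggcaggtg
The upstream Egr2 window held 1 CArG box, beginning 72 bases before its start site, and 3 Ets cores, of which 2 overlap each other. The downstream Egr2 window held 1 CArG box, also beginning 72 bases before its own start site, and 1 TGACGT motif. The Egr4 window held 2 TGACGT motifs and neither a CArG box nor an Ets core in the exact forms searched. Over all 32807 windows searched, 1.63% held a CArG box, 7.51% TGACGT and 14.9% the Ets core. The binding site of the Egr proteins themselves, GCGNGGGCG, was found in 5.56% of all windows and in none of the Egr2 and Egr4 windows. Of the 5 Egr2 windows, the last 3 overlap one another and share a CArG box and a TGACGT motif, and the first held none of these motifs. The matches describe letters in the windows, not bound sites.

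Values are MAS5 signals in arbitrary units, with a trimmed mean of 2500.6 to 2500.8 on every array. Across probe sets, r was 0.976 to 0.984 between replicates and 0.750 to 0.805 between arrays of different genotype. Med23 read 3577 to 5410 on the wild-type arrays and 28 to 132.5 on the knockout arrays. Whether its probes lie within the deletion is not stated in the sources used here. Of 13 named fibroblast markers, 11 were at or above the array's 40th percentile on both arrays of each wild-type group, and 12 in each knockout group. Their summed signal was 194300 to 220500 in wild-type and 349800 to 467700 in knockout cells. Thy1 stayed below that percentile on all 8 arrays (131.6 to 242.1), and Pdgfra, a receptor on many fibroblasts, read 13.25 to 129.2 in wild-type and 6040 to 15780 in knockout cells. No group had more than 1 of 6 epithelial, 1 of 5 endothelial, 2 of 6 immune, 1 of 4 muscle or 2 of 4 neural markers at that level on both arrays, and none had any of 4 pluripotency markers. The part of these marker differences in the genotype comparisons was not tested.

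All 5 Egr probe sets rose with serum in both genotypes. Egr1 read 6993 and 7545 in starved wild-type cells and 44250 and 44090 after serum. In knockout cells it read 1336 and 1965 when starved and 40510 and 39300 after serum. The groups of Egr1 ran from starved knockout through starved wild type and stimulated knockout to stimulated wild type, and the arrays of neighbouring groups did not overlap. The last of these steps did not pass the test given below. Among the probe sets of its array, Egr1 lay between the 57.5th and 88.9th percentile in starved cells and between the 99.1st and 99.8th after serum.

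Egr2 was low in starved cells and bright after serum. Its first probe set read 176.2 and 158.4 in starved and 7922 and 6355 in stimulated wild-type cells. In knockout cells it read 48.55 and 62.08 before and 8034 and 8578 after serum. Starved knockout arrays were thus below starved wild-type arrays, and the 4 stimulated arrays lay together at the top. The second Egr2 probe set read 261.6 and 199.4 and then 10390 and 8228 in wild-type cells. In knockout cells it read 165.7 and 420.3 and then 12020 and 13110. Here the starved knockout arrays lay on either side of the starved wild-type arrays, so the probe sets disagree on whether starved Egr2 was lower in the knockout. Every starved value of both probe sets was under the 40th percentile of its array, and both passed the filter on low signal through the stimulated arrays.

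Egr3 read 465.1 and 532 in starved and 4198 and 2244 in stimulated wild-type cells. In knockout cells it read 573.7 and 624.2 and then 3140 and 3176. The stimulated wild-type arrays were 1.87-fold apart and enclosed both stimulated knockout arrays. Egr4 read 66.95 and 299.5 in starved wild-type cells and 3917 and 2769 after serum. In knockout cells it read 350.3 and 258.4 before and 3489 and 5559 after serum. The 4.47-fold gap between starved wild-type arrays was the widest of any Egr probe set in any group, and the genotypes overlapped for Egr4 in both states. All starved values of Egr4 were under the 40th percentile too.

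**Figure D1:**
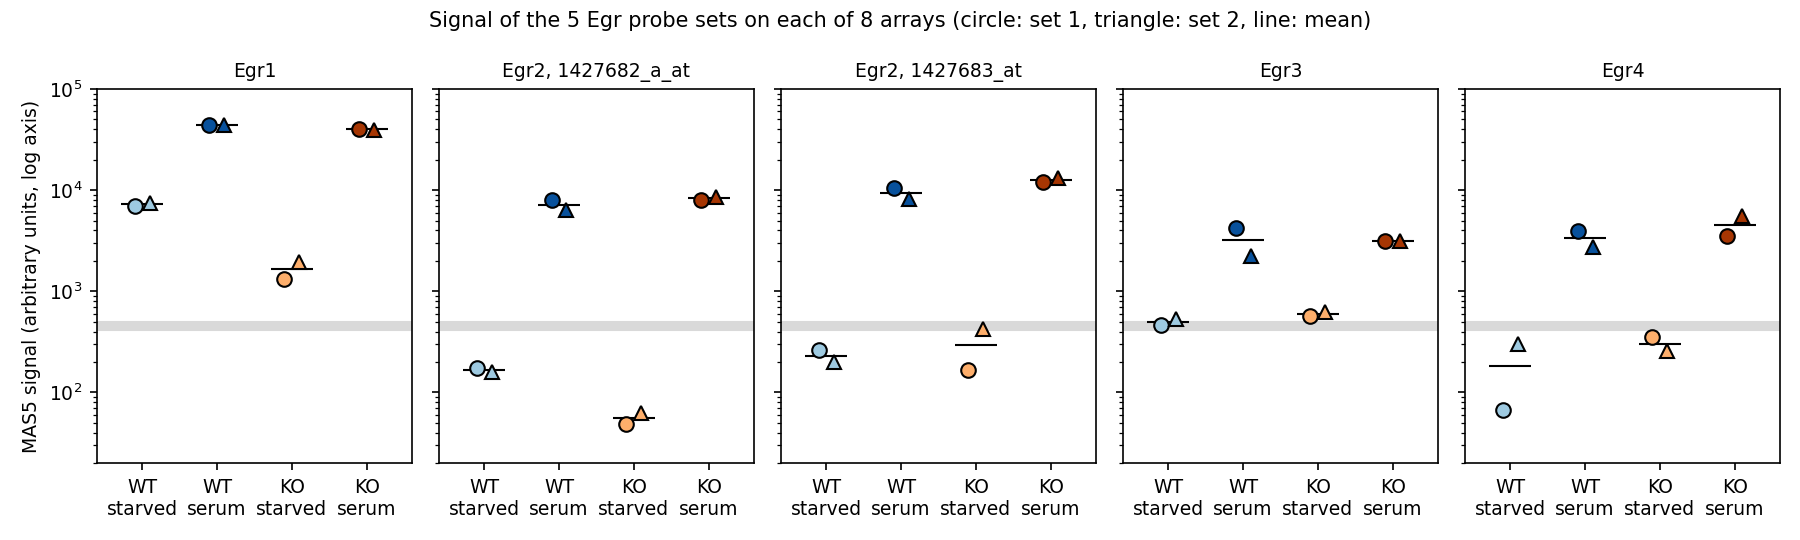
MAS5 signal (arbitrary units, log axis) of the 5 Egr probe sets on each array of wild-type (WT) and knockout (KO) cells, with circles for set 1, triangles for set 2, horizontal lines for the mean of the 2 arrays and a grey band for the range of the arrays' 40th percentiles (412.6 to 497.4). Stimulated arrays lie above the starved arrays of their genotype in every panel, and the genotypes part most for starved Egr1 and for the starved first Egr2 probe set.

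The serum response of wild-type cells was the study's reference. The limma fit on log2 of signal plus 16 called all 5 Egr probe sets higher at a Benjamini-Hochberg adjusted p under 0.05, where 2.44% of the 14947 tested probe sets were called higher and 4.14% in either direction. The first and second Egr2 probe sets rose by 5.28 ± 0.194 (SE) and 5.24 ± 0.333 on the log2 scale, or 38.8-fold and 37.9-fold (limma adjusted p = 2.77e-07 and 8.23e-06). Egr4 rose by 4.35 ± 0.505, or 20.5-fold (limma adjusted p = 0.000742). Egr1 and Egr3 rose by nearly the same amount, 2.60 ± 0.156 and 2.59 ± 0.252, or 6.07-fold and 6.01-fold (limma adjusted p = 5.63e-06 and 0.000229). The median change of the 5 probe sets was 4.35, against -0.05 for all tested probe sets.

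Because starved Egr2 and Egr4 were dim, the size of their folds depends on the constant added before the log. Over the added constants, scalings and filters tried, the wild-type change ranged from 4.12 to 5.40 for the first Egr2 probe set, 4.29 to 5.33 for the second and 3.07 to 4.53 for Egr4. It ranged from 2.56 to 2.79 for Egr1 and from 2.15 to 2.63 for Egr3. Leaving out single arrays moved Egr4 most, from 3.39 to 5.32. All 5 calls held in each of these refits.

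In knockout cells all 5 Egr probe sets were again called higher, where 9.33% of tested probe sets were, and 23.1% were called in either direction. The first Egr2 probe set rose by 6.87 ± 0.194 (117-fold, limma adjusted p = 2.49e-08) and the second by 5.48 ± 0.333 (44.7-fold, limma adjusted p = 3.27e-06). The second gave 4.85 without starved knockout array 1 and 6.11 without starved knockout array 2. Egr1 rose by 4.61 ± 0.156, or 24.4-fold (limma adjusted p = 5.6e-08). Egr4 rose by 3.80 ± 0.505, or 13.9-fold, and Egr3 by 2.37 ± 0.252, or 5.17-fold (limma adjusted p = 0.000688 and 0.000167). The median of the 5 probe sets was 4.61, against -0.13 for all tested probe sets. An exact two-sided permutation test of 2 arrays against 2 cannot give a p below 0.333, so the calls depend on limma's sharing of the spread among groups and probe sets. The change of the first Egr2 probe set was 4.78 with the largest added constant, and all 5 calls held in every refit.

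**Figure D2:**
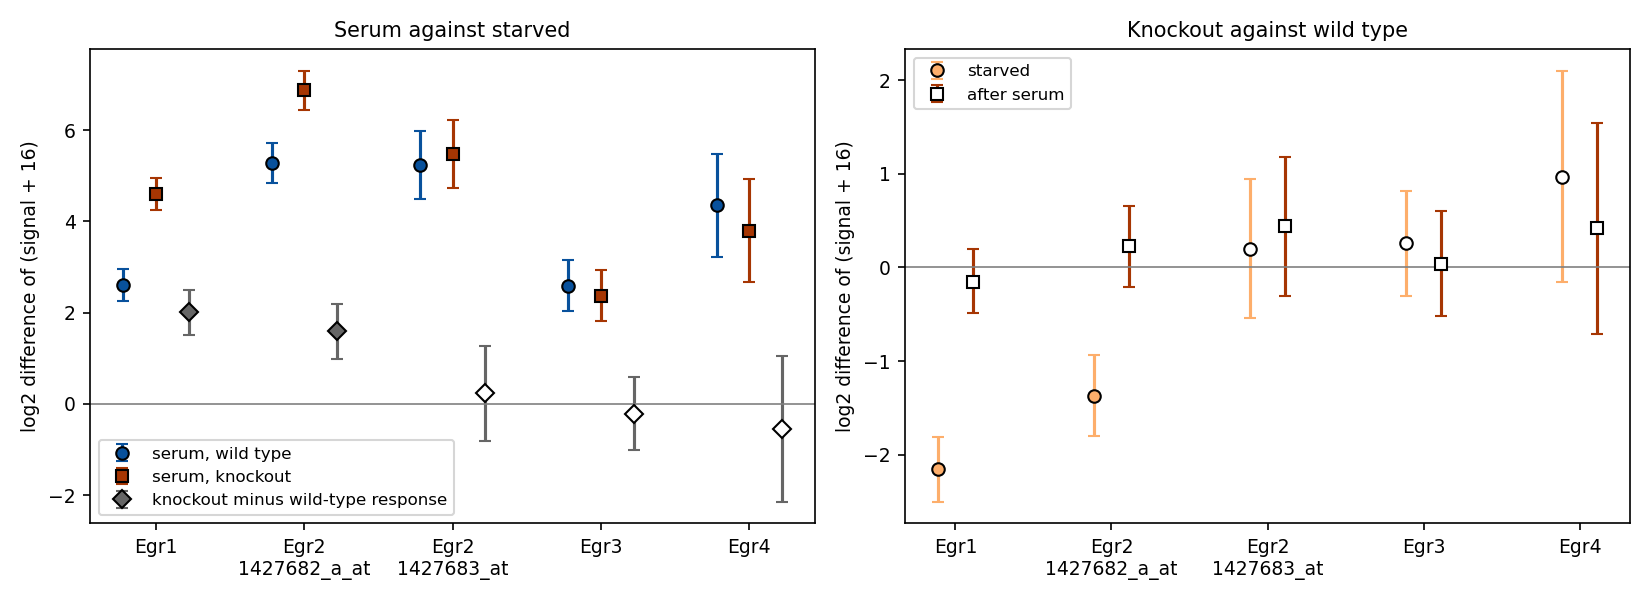
Log2 differences of signal plus 16 with 95% intervals from the limma fit for the 5 Egr probe sets, on the left serum against starved in each genotype and the difference of those responses, on the right knockout against wild type in each state. Filled symbols had adjusted p under 0.05. All serum responses are filled, and the difference of responses is filled for Egr1 (2.01) and the first Egr2 probe set (1.59).

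The design asked which genes respond to serum differently once MED23 is lost, which was tested as an interaction. The Egr1 response was larger in the knockout by 2.01 ± 0.221 (95% interval 1.51 to 2.50, limma adjusted p = 0.00201), a ratio of folds of 4.02. That of the first Egr2 probe set was larger by 1.59 ± 0.275 (0.98 to 2.20, limma adjusted p = 0.0168). The second Egr2 probe set gave 0.24 ± 0.470 (-0.81 to 1.28, adjusted p = 0.832), an interval that overlaps that of the first. Egr3 gave -0.22 ± 0.357 (-1.01 to 0.58, adjusted p = 0.787) and Egr4 -0.55 ± 0.715 (-2.14 to 1.04, adjusted p = 0.726). In all, 2 of 5 Egr probe sets were called higher, where 1.61% of all tested probe sets were called higher and 2.69% in either direction, and none was called lower. The call for the first Egr2 probe set rests on starved signals of 48.55 to 176.2, all under the 40th percentile, since its stimulated groups gave 0.23 (adjusted p = 0.359). Egr1 is thus the only called Egr interaction whose starved signals were above that percentile on every array.

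The Egr1 interaction kept its call in every refit, between 1.72 and 2.28. That of the first Egr2 probe set was lost with the largest added constant (0.66, adjusted p = 0.107). It was also lost without stimulated wild-type array 2 (1.43, adjusted p = 0.0915), without stimulated knockout array 1 (1.64, adjusted p = 0.0888) and without stimulated knockout array 2 (1.55, adjusted p = 0.0900). For the other probe sets single arrays set the sign. With 1 array left out, the interaction ran from -0.39 to 0.87 for the second Egr2 probe set, from -0.67 to 0.23 for Egr3 and from -1.52 to 0.41 for Egr4.

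The ends of the response can be read apart, although these comparisons share arrays with the interaction. Starved Egr1 averaged 1651 ± 445 (SD, n = 2) in knockout and 7269 ± 390 (SD, n = 2) in wild-type cells, a log2 difference of -2.15 ± 0.156 (4.45-fold, limma adjusted p = 3.1e-06). The first Egr2 probe set averaged 55.31 ± 9.57 against 167.3 ± 12.6 (SD, n = 2 each), a difference of -1.37 ± 0.194 (limma adjusted p = 0.000283). The second Egr2 probe set gave 0.20 ± 0.333 (adjusted p = 0.645), Egr3 0.26 ± 0.252 (adjusted p = 0.428) and Egr4 0.97 ± 0.505 (adjusted p = 0.141). So 2 of 5 Egr probe sets, or 40%, were called, both lower, where 47.6% of all tested probe sets were called and 24.8% were called lower. The arrays did not overlap for 3 of 5 (Egr1, the first Egr2 probe set and Egr3), where 73.3% of all tested probe sets did not. The share called in either direction and the share without overlap were thus below those of the array as a whole. The share called lower, 40%, was above the array's 24.8%, but it rests on only 2 probe sets.

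Single arrays and the added constant moved these values. The starved difference of Egr1 stayed between -2.43 and -1.88. The first Egr2 difference ranged from -1.59 to -0.44 with the smallest and the largest added constant, so its size depends on that constant, and it had adjusted p = 0.0920 when only the arrays compared were fitted. Without starved knockout array 1 the second Egr2 probe set was called higher in the knockout (0.84, adjusted p = 0.0115), and without array 2 it gave -0.43 (adjusted p = 0.143). Without starved wild-type array 2 Egr4 was called higher (1.93, adjusted p = 0.00212).

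After serum no Egr probe set passed between the genotypes, at adjusted or at unadjusted p under 0.05 in limma (smallest unadjusted p = 0.214), where 50.2% of all tested probe sets were called. Egr1 averaged 44170 ± 111 in wild-type and 39910 ± 857 in knockout cells (SD, n = 2 each), a log2 difference of -0.15 (95% interval -0.49 to 0.20, limma adjusted p = 0.461). The difference was 0.23 (-0.21 to 0.66) for the first and 0.44 (-0.30 to 1.18) for the second Egr2 probe set. It was 0.04 (-0.52 to 0.60) for Egr3 and 0.42 (-0.71 to 1.54) for Egr4. The arrays did not overlap for Egr1 and both Egr2 probe sets, 3 of 5, where 78.3% of all tested probe sets did not. After quantile normalization Egr1 was called lower (-0.44, adjusted p = 0.0365), and the second Egr2 probe set was called higher when only the arrays compared were fitted (0.44, adjusted p = 0.0194).

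On the linear scale Egr1 gained 36900 signal units in wild-type and 38260 in knockout cells. The first Egr2 probe set gained 6971 and 8251 units and the second 9079 and 12270. Egr3 gained 2723 and 2559 units, and Egr4 gained 3160 and 4219. For Egr1 the lines thus differed less in units gained than in fold, and these gains were not tested.

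**Figure D3:**
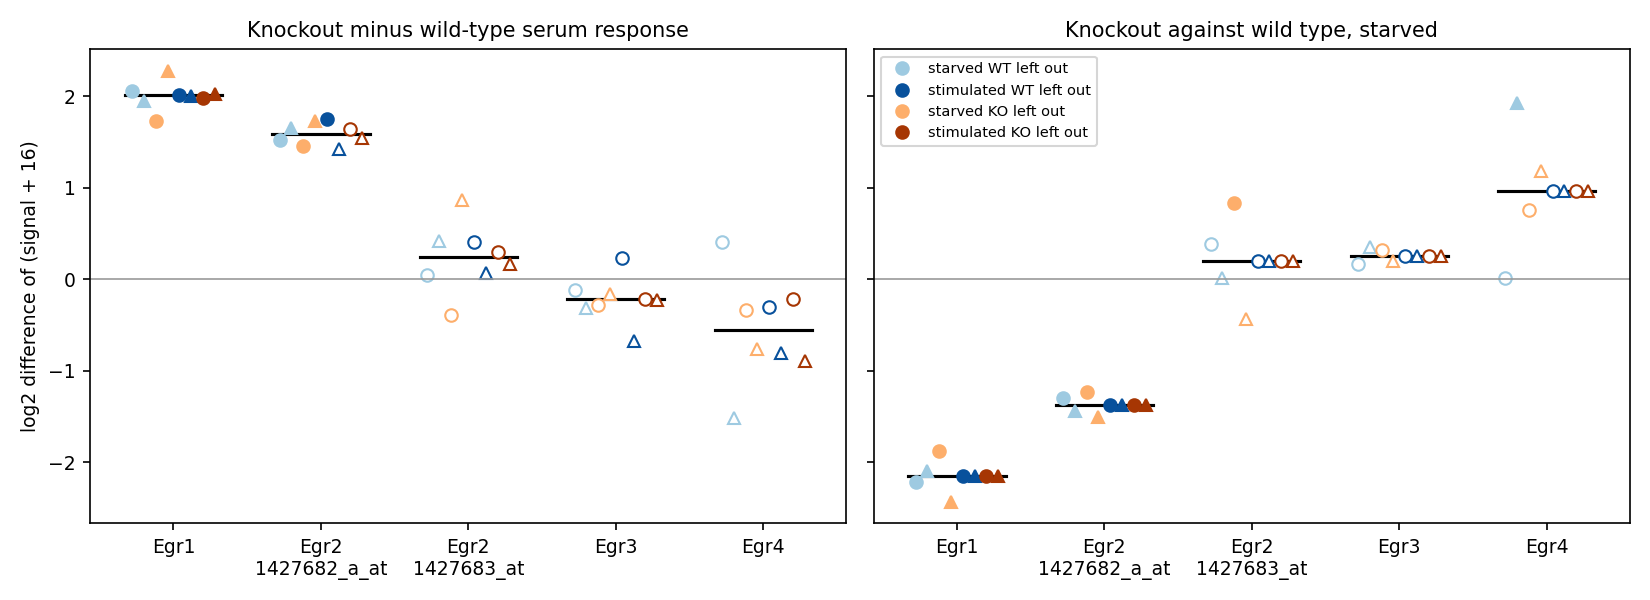
Log2 differences of signal plus 16 for the 5 Egr probe sets, on the left the knockout minus the wild-type serum response and on the right knockout against wild type in starved cells, with all arrays (black line) and with 1 array left out (circle for set 1, triangle for set 2, coloured by its group). Filled points had adjusted p under 0.05. Egr1 stays between 1.73 and 2.28 on the left, while the second Egr2 probe set, Egr3 and Egr4 fall on both sides of 0.

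Profiles over the 8 arrays were compared as a description, since the arrays fall into 4 groups and all members rise with serum. Egr1 correlated with the other Egr probe sets at r from 0.810 (Egr4) to 0.968 (the first Egr2 probe set), and Egr3 with the second Egr2 probe set at 0.980. The 2 Egr2 probe sets correlated at 0.978. Among 13794 probe sets of other single genes, the profile most like that of Egr1 was Noct, which encodes nocturnin (r = 0.9994). Noct rose by 2.31 in wild-type and 4.01 in knockout cells, and its starved difference was -1.81. Pmaip1, which encodes the cell death promoter Noxa, and Ier5, an immediate early response gene, followed at r = 0.9954 and 0.9951.

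For the first Egr2 probe set the nearest profile was that of Fosl1, an AP-1 factor (r = 0.9976), then the pseudokinase gene Trib1 and Ifrd1 (r = 0.9930 and 0.9928). For the second it was the orphan nuclear receptor gene Nr4a1 (r = 0.9972), then Ier3 and Trib1 (r = 0.9931 and 0.9898). Nearest to Egr3 were Maml1, a Notch coactivator (r = 0.9867), the synaptic gene Arc (r = 0.9856) and Ier3 (r = 0.9848). Maml1 changed by only 0.61 and 0.55 with serum, since r compares the shape of a profile and not its size. Nearest to Egr4 were Dusp2, a phosphatase of MAP kinases, the matrix protein gene Ccn1 and Errfi1, which restrains EGF receptor signalling (r = 0.9790, 0.9765 and 0.9698).

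Of 8 cofactors and competitors of the Egr proteins, 7 were named on the array and 6 passed the filter. In wild-type cells 1 of the 6 rose with serum and none fell, 16.7% against 4.14% of all tested probe sets, with a median of 0.07. It was Nab2, a corepressor that Egr proteins themselves induce, at 3047 and 2261 before and 7830 and 8821 after serum, a change of 1.66 ± 0.193 (limma adjusted p = 0.000745). In knockout cells 2 of 6 rose and none fell, 33.3% against 23.1%, with a median of -0.24. Nab2 went from 4606 and 3110 to 15070 and 15740, a change of 2.02 ± 0.193 (limma adjusted p = 7.99e-05), and its corepressor relative Nab1 rose by 0.88 ± 0.124 (limma adjusted p = 0.000965). No cofactor passed in the limma interaction, where only 2.69% of all tested probe sets were called. Unadjusted p was under 0.05 for 2, Nab1 at 0.55 (limma adjusted p = 0.138) and Hcfc1 at -0.54 (limma adjusted p = 0.129). How many of all probe sets had such a p was not counted.

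In starved cells the corepressor gene Nab1 was lower in the knockout, at 5147 against 8894 by its brighter probe set (-0.80, limma adjusted p = 0.000509) and at 1603 against 3604 by the other (-1.16, limma adjusted p = 0.000466). Nab2 gave 0.53 (limma adjusted p = 0.0457), close to the threshold. After serum Nab2 was higher in the knockout by 0.89 ± 0.193 (limma adjusted p = 0.0035), with no overlap of arrays, and Nab1 gave -0.25 (adjusted p = 0.120). Among the other starved cofactors, Sp1, which binds GC-rich sites that can overlap Egr sites, was at 0.98, the coactivator gene Crebbp at 0.86 and Hcfc1, whose product binds Egr2, at -0.60. In all 3 of 6 were higher and 2 lower in starved knockout cells, 83.3% against 47.6% of all tested probe sets, and 3 higher and 1 lower after serum, 66.7% against 50.2%. The starved count of 3 higher fell to 2 without starved wild-type array 2, without starved knockout array 1 and without any 1 of the stimulated arrays. Sp3 passed in neither (0.03 and -0.05). Wt1, a factor with a related binding site, averaged 36.83 to 105.8 over the groups and was not tested.

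Of 27 genes on the route from serum to the Egr promoters, 19 were named on the array, and all 19 were tested. In wild-type cells Srf was the only one called (1.58 ± 0.128, limma adjusted p = 5.32e-05), or 5.26% of the list against 4.14% of all tested probe sets, with a list median of 0.04. In knockout cells 4 rose and 1 fell, 26.3% against 23.1%, with a median of 0.08. Srf rose by 1.29 ± 0.128 (limma adjusted p = 0.000109), Mapkapk2, a kinase downstream of p38, by 1.24, Rps6ka3, a kinase that ERK activates, by 0.69 and the ternary complex factor gene Elk4 by 0.56. Mrtfa, an actin-regulated partner of SRF, gave -0.70 (limma adjusted p = 0.00321). None of the 19 passed in the limma interaction, where only 2.69% of all tested probe sets were called. Unadjusted p was under 0.05 for 6 of the 19, and how many of all probe sets had such a p was not counted.

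In starved cells 4 genes of the route were higher and 5 lower in the knockout, 47.4% against 47.6% of all tested probe sets. Those with the smallest p were Srf at 1.13 (limma adjusted p = 6.6e-05), Rps6ka3 at -0.88, the Raf kinase gene Araf at 0.91 and the adaptor gene Grb2 at -0.69. After serum 3 were higher and 4 lower, 36.8% against 50.2%, led by Grb2 at -0.90, Srf at 0.83, Araf at 0.84 and the ternary complex factor gene Elk3 at -0.82.

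Of 31 reported targets of Egr factors, 24 were named on the array and 16 tested. Like the lists above, this list was chosen with earlier results of these data known. Its shares were thus open to selection and do not measure enrichment. In wild-type cells 4 rose and 1 fell, 31.2% against 4.14% of all tested probe sets, with a median of 0.30. The neuronal gene Arc rose by 5.83, Pdgfb, a growth factor gene, by 2.34 ± 0.349, Vegfa, a growth factor gene for blood vessels, by 2.07 ± 0.113 and F3, which encodes tissue factor, by 2.05 ± 0.125. Cdkn2b, a cell cycle inhibitor gene, gave -1.56 (limma adjusted p = 0.00299), a call lost without starved wild-type array 1 or 2 and without stimulated wild-type array 1. In knockout cells 4 rose and 1 fell, 31.2% against 23.1%, with a median of -0.09. Arc rose by 6.51, F3 by 4.27 ± 0.125, the cell cycle inhibitor gene Cdkn1a by 2.54 and Vegfa by 1.17 ± 0.113. Pmp22, a myelin protein gene, gave -0.41 (limma adjusted p = 0.0406), a call lost without any 1 of the 4 stimulated arrays.

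In the interaction 4 of the 16 reported targets were called, 2 with a positive and 2 with a negative difference. That was 25% against 2.69% of all tested probe sets, a contrast also open to selection of the list. F3 responded more by 2.21 ± 0.176 (limma adjusted p = 0.000383), from 956.6 to 18650 in knockout and from 2687 to 11170 in wild-type cells. Its difference between genotypes was -1.48 in starved cells (limma adjusted p = 8.84e-06) and 0.74 after serum (limma adjusted p = 0.000802). Pdgfb gave -2.36 ± 0.494 (limma adjusted p = 0.0374). Its means were 2882 and 14790 in wild-type and 415.3 and 366.4 in knockout cells, where its change with serum was -0.01. Both knockout means lay under the 40th percentiles of their own arrays (462.3 and 497.4 starved, 412.6 and 449.8 after serum). The value of -2.36 thus mostly restates its rise of 2.34 ± 0.349 in wild-type cells, set against knockout signals that were low in both states. Vegfa gave -0.91 ± 0.159 (limma adjusted p = 0.0184). The positive value of Cdkn2b, 1.38 ± 0.315 (limma adjusted p = 0.0499), restates its fall in wild-type cells. In knockout cells it averaged 43.93 and 37.43, far under the 40th percentiles, and its change was -0.17 (adjusted p = 0.615), so F3 was the only target called with a larger response in the knockout. The count of negative calls went to 0 without any 1 wild-type array or any 1 stimulated knockout array. The count of positive calls went to 1 on leaving out any array but starved knockout array 1.

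Between the genotypes 2 reported targets were higher and 7 lower in the starved knockout, 56.2% of 16 against 47.6% of all tested probe sets, and 3 higher and 9 lower after serum, 75% against 50.2%. The medians were -0.28 and -0.39, against -0.01 and -0.07 for all tested probe sets. Igf2, a fetal growth factor gene, gave -2.55 in starved cells and -2.83 after serum. Cdkn2b, Pdgfb and the growth factor gene Tgfb1 were also called lower in both states. The knockout means of Cdkn2b (43.93 and 37.43) and Tgfb1 (375.9 and 284.7) and the stimulated mean of Pdgfb (366.4) lay under every array's 40th percentile, so the size of those differences depends on the added constant and is not given. The wild-type means were 12320 and 4204 for Cdkn2b and 5081 and 6816 for Tgfb1. The targets called higher were the collagen gene Col1a2 (5.11 ± 1.19) and Pmp22 (0.61) in starved cells. After serum they were Col1a2 (4.58 ± 1.19), Arc (1.03) and F3 (0.74). Col1a2 ranged from 581.4 to 9443 over the wild-type arrays.

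**Figure D4:**
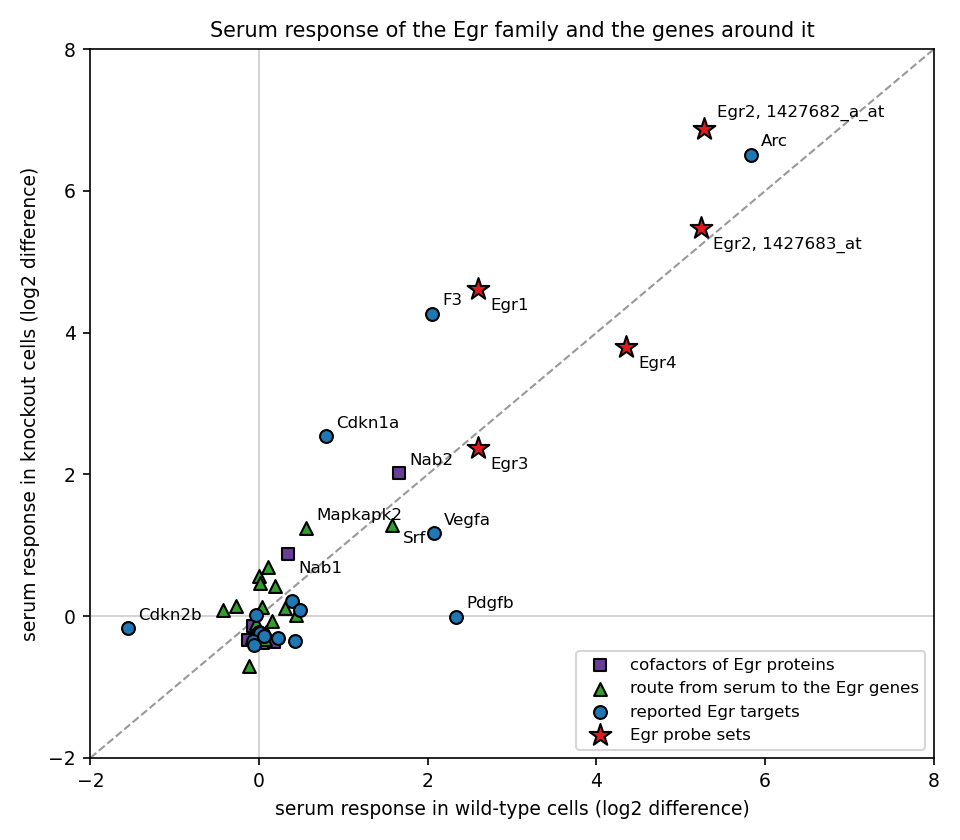
Serum response in wild-type cells (horizontal) against that in knockout cells (vertical), as log2 differences of signal plus 16, for the 5 Egr probe sets and the tested genes of the lists around them, with the dashed line marking equal responses. Egr1 and F3 lie above the line, and Pdgfb and Vegfa below it.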

How the data were processed

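Total RNA was hybridised to 8 one-colour arrays. The deposited values are signal intensity, 1 per probe set and array; the submitters' processing notes name MAS5 without a version. That all arrays have the same trimmed mean shows that the authors scaled them. MAS5 values near the floor are imprecise, and presence calls were not used here. From these values, 64 control probe sets were removed, and 14947 probe sets were tested whose signal reached its array's 40th percentile on 2 or more of 8 arrays. The test was limma 3.58.1 (R 4.3.3) on log2(signal + 16), with 4 group means, a mean-variance trend, two-sided p and Benjamini-Hochberg adjustment over all tested probe sets. It had 4 residual and a median of 6.07 prior degrees of freedom. List genes used their brightest probe set. The number of arrays limits the precision. In simulated data of 14947 probe sets, 93.2% of interactions of 2 and 50.4% of those of 1 on the log2 scale were recovered. Of the interaction calls there, 6.73% were false. Each run changed only 200 probe sets and used normal noise of the fitted spread, so recovery in the real data may differ.

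The members and lists were chosen with earlier results of these data known. Named genes were the Egr probe sets, the cofactors, up to 4 called genes of smallest p per other list and comparison, the 3 profiles nearest to each member, and Med23. Further members of short call lists were named after their values were seen. Alternatives were other added constants, quantile normalization, median centring, other filters, no trend, only the arrays compared, the set number as a block, all probe sets of list genes, and single arrays left out. Same-numbered arrays deviated together at r from -0.034 to 0.214, so the numbers were not taken as pairs.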

Additional observations from a re-analysis of the deposited data

Results flagged for a closer look

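The serum response of 2 Egr probe sets differed between the genotypes by the interaction test. For Egr1 the knockout response exceeded the wild-type response by 2.01 on the log2 scale. Knockout against wild type, Egr1 differed by -2.15 in starved cells and by -0.15 after serum, where it did not pass. The knockout thus started lower and did not end higher. For the first Egr2 probe set the excess was 1.59, resting on starved signals under the 40th percentile of their arrays, and the second probe set, at 0.24, did not pass.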

How the results depend on the processing

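Over 25 Egr results (5 probe sets in 5 comparisons) there were 445 alternative values, of which 431 kept direction and side of the threshold, 5 lost a call, 4 gained one and 5 turned sign. All 5 Egr probe sets stayed called in both serum comparisons. The count called in the interaction went from 2 to 1 with the largest added constant and was 1 to 2 with single arrays left out. For starved knockout against wild type it went from 2 to 1 with only the arrays compared, and was 2 to 3 with single arrays left out. After serum it went from 0 to 1 with quantile normalization and with only the arrays compared. Signs turned only with single arrays left out and only for differences that had not passed. The ranges were -0.39 to 0.87 (interaction) and -0.43 to 0.84 (starved) for the second Egr2 probe set, -0.67 to 0.23 (interaction) and -0.41 to 0.49 (after serum) for Egr3, and -1.52 to 0.41 (interaction) for Egr4. The cause was not tested. Over all probe sets, the 619 calls of wild-type serum were 312 to 705, the 3455 of knockout serum 1581 to 3215 and the 402 of the interaction 127 to 495 with single arrays left out. The interaction gave 250 without the filter and 214 without the trend. In knockout serum the median of all probe sets was -0.13 as deposited and -0.02 after median centring, with rises at 40.4% and 58.4% of calls. With the set number as a replicate block, the Egr counts were 5 (wild-type serum), 5 (knockout serum), 2 (interaction), 2 (starved) and 0 (after serum), and no Egr call changed.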
